A study of Rattus norvegicus with 13 samples.

Results

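Interferon regulatory factors (IRFs) and signal transducers and activators of transcription (STATs) are the transcription factors that carry interferon and cytokine signals to the nucleus. Irf1, Irf2, Irf3, Irf5, Irf7, Irf8, Irf9, Stat2 and Stat3 are the 9 genes described here, taken as every probe of the array whose annotated gene symbol is one of these names, which gave 10 probes of 22523 and 9 genes of the 13337 named. The family was chosen by measured values of these same arrays, since lower levels of Irf7 after a METH challenge, both with saline pretreatment (SM compared with SS) and with METH pretreatment (MM compared with MS), had drawn attention to it. These 2 comparisons are therefore given for the 9 genes as a description, with no test.

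RNA came from a dissection of the ventral midbrain of the SN/VTA, where the dopamine neurons of the substantia nigra and of the neighbouring ventral tegmental area lie, in male Sprague-Dawley rats aged 8 weeks and weighing 330 to 370 g. Rats received saline or methamphetamine (METH, a psychostimulant that is toxic to dopamine and serotonin terminals at high doses) for 3 weeks, METH in single doses from 0.5 up to 2.5 mg/kg, and 72 h later 8 challenge injections 1 h apart, each either saline or 5 mg/kg METH, and were euthanized 24 h after that. The 13 arrays comprised SS (saline then saline, n = 3, replicates 2 to 4), SM (saline then METH, n = 3, replicates 1, 3 and 4), MS (METH then saline, n = 4) and MM (METH then METH, n = 3, replicates 1 to 3). Each array reads labelled RNA bound to bead-borne probes, and the values below, in units, are fluorescence signals brought to a common scale. The number of arrays limits the precision, and since the sources do not state that each array came from a separate animal, the p-values measure only the spread between these arrays.

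In this pathway type I interferons bind a receptor on the cell surface, the Janus kinases on its tails phosphorylate STAT proteins, among them STAT2, which joins IRF9 in ISGF3, a complex that binds the interferon-stimulated response element of its target genes. Irf7 is itself such a target, and its protein, once phosphorylated downstream of nucleic acid sensors, drives more interferon gene transcription. Interferon gamma acts instead at gamma-activated sites, Irf1 being a classical target, and cytokines that use the gp130 receptor subunit act through STAT3. In brain, microglia, astrocytes, neurons and vessels all respond to interferon. The arrays measure RNA, whereas these factors are switched on chiefly by phosphorylation.

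The promoters below show where the core letters of those elements lie in front of Irf7, of Irf1 and Irf9 among its relatives, and of Oasl2 and Lgals3bp, which followed Irf7 most closely among the listed ISGF3 targets with a promoter in the table used. Each is the 250 bases before the start in RefSeq, build GRCr8, and capitals mark a match. Irf7 lies at chr1:205800024-205800273, minus strand, Oasl2 at chr12:47383186-47383435, minus strand, Lgals3bp at chr10:104127849-104128098, minus strand, Irf1 at chr10:38417685-38417934, plus strand and Irf9 at chr15:33065586-33065835, plus strand.
Irf7: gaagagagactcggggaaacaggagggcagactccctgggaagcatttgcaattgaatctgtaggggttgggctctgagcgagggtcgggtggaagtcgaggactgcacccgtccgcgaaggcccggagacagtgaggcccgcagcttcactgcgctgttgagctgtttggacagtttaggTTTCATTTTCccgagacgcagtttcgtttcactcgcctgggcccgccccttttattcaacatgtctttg
Oasl2: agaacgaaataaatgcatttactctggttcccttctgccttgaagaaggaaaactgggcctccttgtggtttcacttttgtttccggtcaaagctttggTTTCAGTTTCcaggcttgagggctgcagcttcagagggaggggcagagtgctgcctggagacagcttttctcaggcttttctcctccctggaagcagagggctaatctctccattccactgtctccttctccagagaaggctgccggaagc
Lgals3bp: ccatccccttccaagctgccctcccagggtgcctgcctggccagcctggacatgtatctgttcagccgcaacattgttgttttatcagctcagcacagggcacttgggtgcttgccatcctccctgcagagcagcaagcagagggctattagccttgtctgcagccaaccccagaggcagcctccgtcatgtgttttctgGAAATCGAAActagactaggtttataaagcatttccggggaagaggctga
Irf1: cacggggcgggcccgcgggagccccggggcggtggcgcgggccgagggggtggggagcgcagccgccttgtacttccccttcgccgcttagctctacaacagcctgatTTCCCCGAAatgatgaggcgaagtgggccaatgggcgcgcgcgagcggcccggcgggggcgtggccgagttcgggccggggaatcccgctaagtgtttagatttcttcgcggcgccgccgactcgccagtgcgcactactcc
Irf9: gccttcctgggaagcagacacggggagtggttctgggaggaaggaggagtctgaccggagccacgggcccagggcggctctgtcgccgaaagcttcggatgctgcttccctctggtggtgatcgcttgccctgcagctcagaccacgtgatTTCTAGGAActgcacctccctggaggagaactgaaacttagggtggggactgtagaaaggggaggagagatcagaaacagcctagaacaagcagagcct
The first 3 hold GAAANNGAAA, the core of the interferon-stimulated response element, searched on both strands. It lies at positions -69 to -60 from the start in Irf7 and -151 to -142 in Oasl2, on the opposite strand in both and so printed as TTTCNNTTTC, and at -50 to -41 in Lgals3bp on the same strand. The last 2 hold TTCNNNGAA, the core of the gamma-activated site, which reads the same on both strands, at -142 to -134 in Irf1 and -99 to -91 in Irf9. Promoters were found for 8 of the 9 genes. The response element core was in 1 of the 8, that of Irf7, and the gamma-activated core in 3, those of Irf1, Irf8 and Irf9, while 3.41% and 7.67% of all 33469 promoters hold them. The letters are a description of these windows only.

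Irf7, which amplifies interferon production, had the widest range on the log2 scale across the arrays among the 7 genes measured above the lower limit on all of them. Its level was 97.8, 96.6 and 107 units in SS replicates 2 to 4, and 42.7, 59.2 and 53.6 units in SM replicates 1, 3 and 4. It was 194, 253, 97.3 and 114 units in MS replicates 1 to 4, and 42.9, 49.4 and 68.4 units in MM replicates 1 to 3. Every array of a METH-challenged group lay below every array of the saline-challenged groups, whatever the pretreatment. The means were 100.6 ± 5.92 (SD, n = 3) in SS, 51.9 ± 8.41 (SD, n = 3) in SM, 164.5 ± 72.4 (SD, n = 4) in MS and 53.6 ± 13.3 (SD, n = 3) in MM. The order from high to low was MS, SS, MM and SM, and within it MS and SS overlapped, as did MM and SM.

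**Figure D1:**
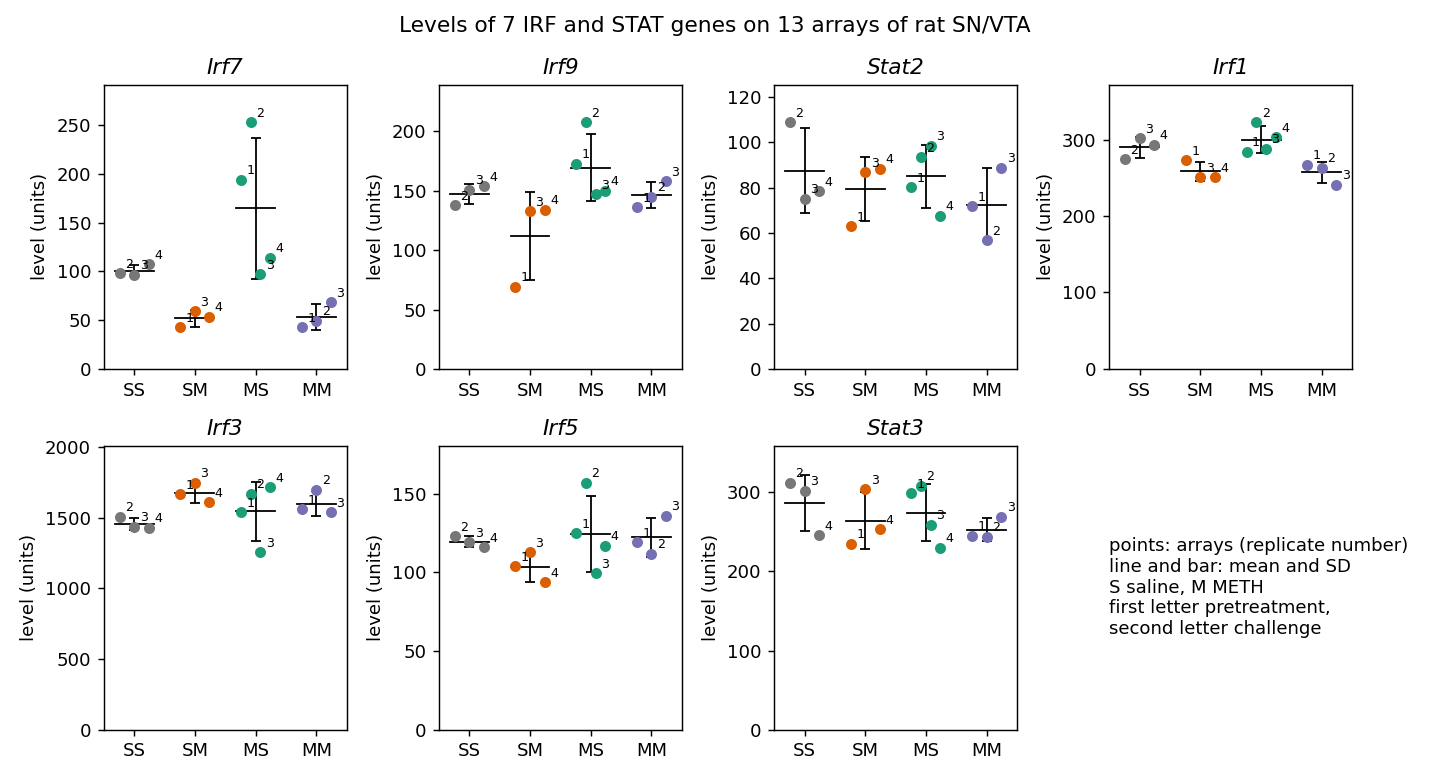
Levels in units (vertical axes, from 0) of the 7 genes measured above the lower limit on all arrays, by group, with each array as a point numbered by its replicate and the mean and SD as line and bar. Irf7 lies between 42.7 and 68.4 units in the METH-challenged groups and between 96.6 and 253 units in the others, and the METH-challenged arrays of Irf1 also lie below the others, by a small margin.

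In SM against SS the Irf7 level was 1.96-fold lower, a log2 fold change of -0.97 (SE 0.32), and in MM against MS it was 2.91-fold lower, at -1.54 (SE 0.30). Both values lie past the criterion by which genes were picked, a fold of 1.7 or more with an unadjusted limma p below 0.05, so this is fixed by the choice and is no test (limma, adjusted p = 0.966 and 0.556 over all probes). Irf7 was the only one of the 9 genes to do so in either comparison, where 0.939% of the 17140 probes tested met it downward in SM and 0.583% in MM. Nothing is read from these counts, since the family was picked on them.

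METH pretreatment alone was not a comparison of the choice, but its MS and SS arrays were used in it. MS against SS is therefore not independent of the choice. The same holds for MM against SM and for the difference between the challenge effects. The mean Irf7 level was higher in MS than in SS and did not reach the criterion. The log2 fold change was 0.60 (SE 0.30, 95% interval -0.04 to 1.25, limma, adjusted p = 1). MS replicates 1, 2 and 4 were above all SS arrays, replicate 4 by the least, at 114 units against 107, and replicate 3 lay inside the SS range. Among arrays numbered 1 and 2 the log2 fold change of MS against SS was 1.18 (2 arrays against 1), and among those numbered 3 and 4 it was 0.05 (2 against 2). The sources do not say that these sets of numbers are batches. Leaving out MS replicate 3 brought the value to 0.82 and past the criterion, and leaving out MS replicate 2 brought it to 0.36. The spread of Irf7 within groups was 0.42 on the log2 scale. It was larger than that of 95.4% of the 7612 genes above the limit on all arrays with a mean of at least 32 units.

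The METH-challenged groups differed in Irf7 by much less. MM against SM gave 0.03 (SE 0.32, 95% interval -0.66 to 0.72), an interval that does not leave out a change of 1.5 times either way. The challenge effect after METH was larger in size than after saline by a log2 difference of -0.57 (SE 0.43, 95% interval -1.52 to 0.37, limma, adjusted p = 1), so a difference between the 2 pretreatments was not detected. Within arrays numbered 1 and 2 this difference was -1.07, with 1 array each of SS and SM and 2 each of MS and MM. Within those numbered 3 and 4 it was 0.23, with 1 array of MM and 2 of each other group. For the comparisons on which the family was picked, SM against SS gave -1.20 (1 array against 1) and -0.85 (2 against 2) in these sets, and MM against MS gave -2.27 (2 against 2) and -0.62 (1 against 2).

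The partners of ISGF3 showed no change at the criterion. Irf9, its DNA-binding subunit, was at 138, 151 and 154 units in SS and at 69.4, 133 and 134 units in SM. It was at 173, 208, 147 and 150.2 units in MS and at 136, 145 and 158 units in MM. The SM arrays lay below the SS arrays, and the MM arrays above the SM arrays, but SM replicate 1 stood far below the other 2 of its group. The log2 fold change of MM against SM was 0.44 (SE 0.23, 95% interval -0.05 to 0.93, limma, adjusted p = 1) and 0.13 without SM replicate 1, and that of SM against SS was -0.46 (SE 0.23) and -0.15 without it. In MS against SS it was 0.19 (95% interval -0.28 to 0.65).

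Stat2, the STAT of ISGF3 that carries its activation domain, was at 109, 75.2 and 78.4 units in SS and at 62.9, 86.9 and 88.3 units in SM. In MS it was at 80.2, 93.5, 98.6 and 67.7 units and in MM at 71.8, 56.8 and 88.9 units. All 4 groups overlapped. Its log2 fold change was -0.04 in MS against SS (95% interval -0.49 to 0.41) and -0.14 in MM against SM (95% interval -0.62 to 0.34). A second Stat2 probe was listed at the lower limit on all 13 arrays and gives no level.

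Irf3, which is present before any signal and starts interferon induction, had 1506, 1435 and 1429 units in SS and 1664, 1747 and 1610 units in SM. The SM arrays lay above the SS arrays, by 0.20 on the log2 scale (SE 0.12). MS ranged from 1256 to 1714 units, the lowest being replicate 3, and MM from 1537 to 1698 units, so both overlapped each other and the SM range. The 95% interval of MS against SS was -0.18 to 0.33, and that of MM against SM was -0.34 to 0.20, both short of 1.7-fold. Irf5, which acts downstream of Toll-like receptors, had 123, 119 and 116 units in SS and 104, 113 and 93.9 units in SM. It ranged from 99.3 to 157 units in MS, with replicate 2 the highest and replicate 3 the lowest, and from 112 to 136 units in MM. SM lay below SS (log2 fold change -0.21, SE 0.15), and MM against SM gave 0.24 (SE 0.15, 95% interval -0.08 to 0.57).

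Irf1, the interferon gamma target, was among the steadiest of the same 7612 brighter genes. Its spread within groups was 0.08 on the log2 scale, larger than that of only 3.6% of them. Its level was 274, 302 and 293 units in SS, 273, 251 and 251 units in SM, 284, 323, 288 and 303 units in MS, and 267, 263 and 241 units in MM. As with Irf7, each array of the METH-challenged groups lay below each of the others, here by no more than 1 unit where SM replicate 1 met SS replicate 2. The log2 fold change was -0.16 (SE 0.10) in SM against SS and -0.22 (SE 0.09) in MM against MS, that is 1.12-fold and 1.16-fold lower. Pretreatment left it at 0.05 in MS against SS (95% interval -0.15 to 0.24) and at -0.01 in MM against SM (95% interval -0.22 to 0.20), so a change of 1.7-fold lies outside both intervals.

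Across the 9 genes, 4 of them, Irf1, Irf5, Irf7 and Irf9, had SM arrays all below the SS arrays, where 4.6% of all probes tested did, and 1, Irf3, had them all above, where 5.32% did. In MM against MS the groups were apart for Irf1 and Irf7, both lower, against 2.41% of all probes. These counts belong to the comparisons on which the family was picked and to arrays that share the challenge. In MM against SM the groups were apart for Irf9 alone, higher in MM, where 4.42% of all probes were. The criterion was met by 0 of the 9 genes in MS against SS (1.13% of all probes met it), by 0 in MM against SM (1.55%) and by 0 in the difference of challenge effects (1.66%). At an unadjusted limma p below 0.05, 449, 594 and 490 probes passed in these 3 tests, with none of the 9 genes among them.

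**Figure D2:**
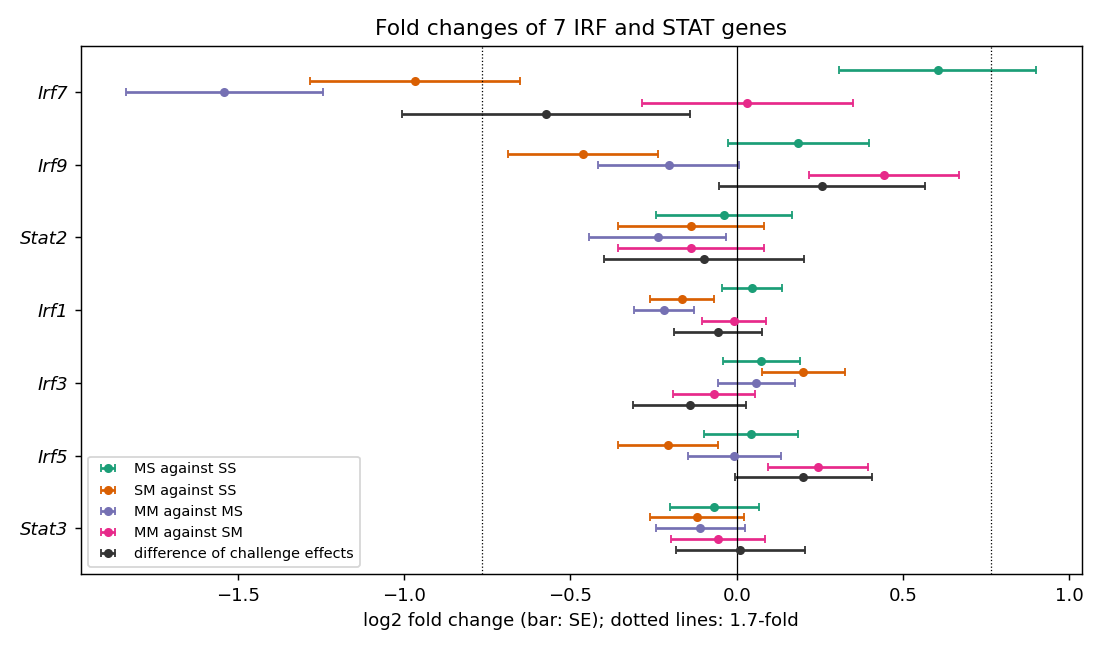
Log2 fold changes (horizontal axis, points) with their SE (bars) of the 7 measured genes in 4 comparisons and in the difference of challenge effects, with dotted lines at 1.7-fold. Only the Irf7 values for SM against SS (-0.97) and MM against MS (-1.54) lie beyond the dotted lines.

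Stat3, which carries interleukin 6 and related signals and is a marker of astrocyte reaction when phosphorylated, was at 312, 302 and 246 units in SS, 235, 304 and 253 units in SM, 299, 308, 259 and 230.3 units in MS, and 245, 244 and 269 units in MM. The 4 groups overlapped. Its log2 fold change was -0.12 (SE 0.14) in SM against SS and -0.11 (SE 0.13) in MM against MS, and the 95% interval was -0.36 to 0.22 in MS against SS and -0.37 to 0.25 in MM against SM. Irf2, which competes with IRF1 for DNA, was at the lower limit on 9 of the 13 arrays and reached at most 2.55 units. Irf8, a factor of microglia and other myeloid cells, was at the limit on 10 arrays and reached at most 0.78 units, so no fold is given for either. The microglial gene Aif1 read 1130 to 1821 units on the same arrays.

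The genes whose log2 level followed that of Irf7 most closely over the 13 arrays, among 7612 candidates with a mean of at least 32 units, were Rtp4, Vtn, Ube2l6, Tm7sf2, Oasl2, Arfgef2, Lgals3bp, Rbm3, Gtf2f1 and Prkrip1. Pearson's r with Irf7 ran from 0.934 for Rtp4 to 0.831 for Prkrip1 and Spearman's rho from 0.945 for Tm7sf2 to 0.797 for Rbm3. All arrays share the 4 groups, so r was also taken on deviations from the group means. This r within groups was 0.856 for Rtp4, 0.845 for Ube2l6, 0.782 for Arfgef2, 0.719 for Vtn, 0.718 for Lgals3bp, 0.707 for Oasl2, 0.706 for Tm7sf2, 0.594 for Gtf2f1, 0.514 for Prkrip1 and 0.213 for Rbm3.

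Rtp4, an interferon-induced gene that chaperones receptors to the cell surface, was at 125, 158 and 183 units in SS and at 73.7, 126 and 99.2 units in SM. It was at 209, 273, 116 and 156 units in MS and at 74.2, 93.5 and 84.5 units in MM. MS replicate 2 was the highest array for Rtp4, as it was for Irf7, and SM replicate 1 the lowest for both. The Rtp4 log2 fold change was -1.10 (SE 0.27) in MM against MS, which met the criterion. Oasl2, of the oligoadenylate synthetase family, was at 215.7 ± 54.9 (SD, n = 3) units in SS, 133.3 ± 23.3 (SD, n = 3) in SM, 215.1 ± 41.3 (SD, n = 4) in MS and 144.3 ± 14.6 (SD, n = 3) in MM, differences that did not meet it. Ube2l6, the enzyme that attaches ISG15 to proteins, was at 176.4 ± 18.7 units in SS, 152.5 ± 16.1 in SM, 196.9 ± 41.3 in MS and 144.2 ± 14.6 in MM (SD). Lgals3bp, a secreted binding partner of galectin 3, was at 139 ± 31.3, 104.4 ± 10.1, 148.1 ± 36.7 and 107.2 ± 6.52 units in the same order (SD). The list also holds genes outside the interferon response as it is usually drawn, such as Vtn (vitronectin), Tm7sf2 (an enzyme of cholesterol synthesis) and Rbm3 (a cold-induced RNA-binding protein). Of the 9 genes of the 10 whose promoter was in the table, 2, Oasl2 and Lgals3bp, had the response element core.

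**Figure D3:**
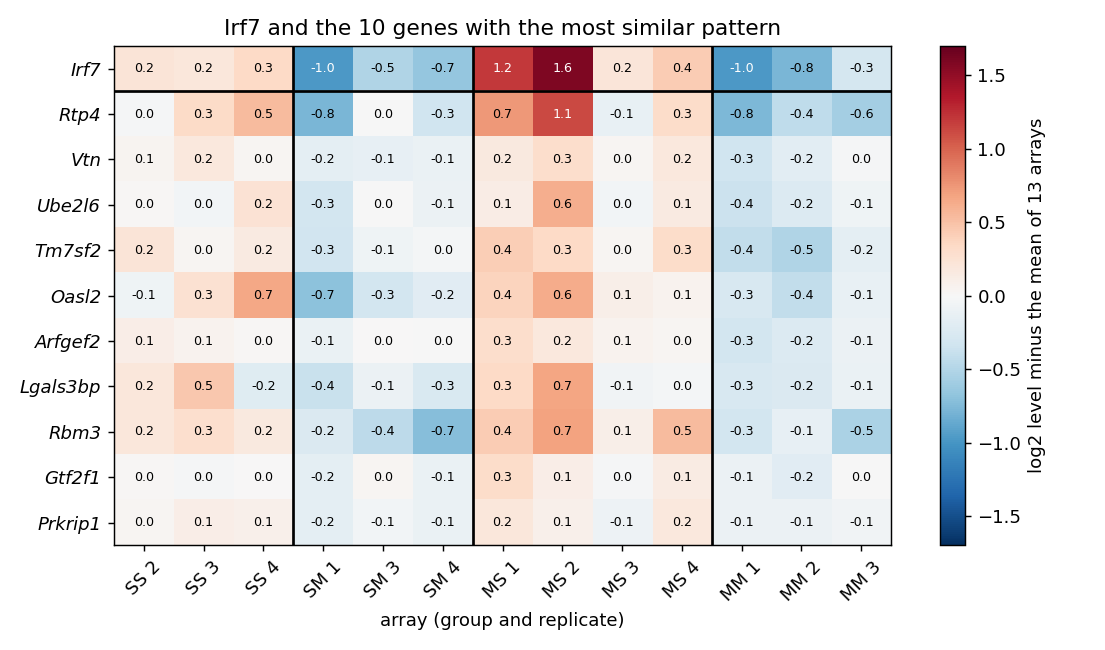
Log2 level minus the mean over the 13 arrays (colour and printed value) for Irf7 and the 10 genes with the highest r to it (rows), by array (columns, groups divided by lines). MS replicates 1 and 2 are the highest arrays for Irf7, and SM and MM arrays are below the mean for it, while the range of each of the other genes is smaller than that of Irf7.

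For Irf1 the nearest genes were Serpinb6b (r = 0.94), Rbm3 (0.919) and Gbp2 (0.861). Gbp2, a guanylate-binding protein induced through IRF1, was at 97.0, 123 and 102 units in SS and 44.3, 40.4 and 44.4 units in SM, and at 76.9, 158, 77.4 and 89.1 units in MS and 67.6, 68.3 and 52.4 units in MM. Each challenged group was below its control for Gbp2, and the log2 fold change was -1.31 (SE 0.24) in SM against SS. The nearest genes of Irf3 were Top3b, Anks3 and Apeh, of Irf5 Anxa3, Lmna and RT1-DMb, of Irf9 Arhgap45, Ncam1 and Nsg1, of Stat2 Tpx2, Papss1 and Ralb, and of Stat3 Npb, Ube2m and Sec61g, with r between 0.792 and 0.936. Among the 9 genes themselves, Irf7 had r = 0.709 with Irf9 (0.679 within groups), 0.605 with Irf5 (0.839 within groups) and 0.731 with Irf1 (-0.01 within groups). The last is carried by differences between groups, since the deviations of Irf1 and Irf7 within groups were unrelated. All these are descriptions over the same 13 arrays.

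Genes upstream of these factors stayed short of the criterion, but for a few dim ones. Interferon ligands had 3 tested genes of 7 listed, interferon receptors 3 of 4, Janus kinases 3 of 4, and the nucleic acid sensors and adaptors that feed IRF3 and IRF7 14 of 22. None of these 23 genes met the criterion in any of the 4 comparisons or in the difference of challenge effects. Ifngr1, a chain of the interferon gamma receptor, read 520.5 ± 56.0 units in SS, 562 ± 49.6 in SM, 542.3 ± 85.0 in MS and 527.8 ± 44.5 in MM (SD), and Jak1, the kinase shared by the receptors, 995.5 ± 88.0, 1067 ± 94.0, 1005 ± 102.8 and 1148 ± 30.6 in that order (SD). Of the gp130 ligands and receptors 1 of 10 tested, Osmr, was lower in MS than in SS, but it lay between 0 and 7.51 units. Of the other family genes with a probe, Irf4 was at the limit on all 13 arrays. Stat5a lay between 44.5 and 65.9 units on all arrays, and Stat5b between 49.1 and 79.3 units. Stat6 was higher in SM than in SS by the criterion, although all SS arrays were at the limit and the SM arrays at 5.43, 1.67 and 1.05 units. Stat4 met the criterion in the difference of challenge effects with arrays between 0 and 14.3 units.

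Negative regulators of the pathway had 12 tested genes of 13 listed. Socs2, which damps growth hormone and cytokine receptors, was at 15.6, 21.3, 41.3 and 11.1 units in MS and at 40.5, 51.8 and 48.9 units in MM, and rose in MM against MS by a log2 fold change of 1.25 (SE 0.40). MS replicate 3 was the one MS array within the MM range. Usp18, which blocks the type I interferon receptor and is itself an ISGF3 target, was at 4.37, 7.15, 3.12 and 0 units in MS and at the limit on all MM and all SM arrays. The other 10 regulators did not meet the criterion in any of these comparisons.

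Targets of ISGF3 had medians of the same sign as the Irf7 values. Of 38 listed genes 26 were tested, and their median log2 fold change was -0.35 in SM against SS, where 20 were lower and 6 higher, and -0.35 in MM against MS, where 24 were lower and 2 higher. Over all probes tested the medians were 0.01 and -0.01. The criterion was met downward by 2 genes in SM against SS and by 5 genes in MM against MS, and upward by 0 in both, where 0.939% and 0.583% of all probes were called downward. Of the 5, only Rtp4 and Oas1a were above the limit on all arrays, and Usp18, Ifi44l and Ifit3 were at it on 8, 8 and 4 arrays, so that their folds are set by the floor. In MS against SS the median was 0.23, with 21 genes higher and 5 lower and 1, Oas1a, called higher, beside a median of 0.02 over all probes, and in MM against SM it was 0.03 with 0 called. Over the 22 genes above the limit on all arrays the medians were 0.17 for MS against SS, -0.25 for SM against SS, -0.32 for MM against MS and 0.06 for MM against SM. The comparisons share arrays, MS standing in both MS against SS and MM against MS, and SS in both MS against SS and SM against SS. This list was written with results of these arrays known, and holds Rtp4, Oasl2 and Lgals3bp from the set nearest to Irf7.

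Eif2ak2, the kinase that stops translation on double-stranded RNA, was at 24.2, 26.7 and 20.6 units in SS and 13.1, 9.37 and 9.68 units in SM, with no overlap. Its log2 fold change was -1.16 (SE 0.25) in SM against SS. In MS it was at 16.0, 19.4, 11.9 and 12.5 units and in MM at 12.2, 9.09 and 17.9 units, so MS and MM overlapped. Oas1a, an oligoadenylate synthetase, was at 15.7, 6.92 and 23.2 units in SS and at 43.5, 38.6, 34.8 and 16.2 units in MS, and its log2 fold change in MS against SS was 1.19 (SE 0.46, limma, adjusted p = 1). In MM it was at 6.20, 15.2 and 14.5 units, a log2 fold change of -1.49 (SE 0.46) against MS, and in SM at 12.9, 22.1 and 17.5 units.

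Targets of IRF1 and interferon gamma had 22 tested genes of 25 listed. In SM against SS 17 were lower and 5 higher, with a median of -0.14, and 4 met the criterion downward, Gbp2, Cxcl9, Igtp and Psmb9. Over all probes tested the median was 0.01, and 0.939% were called downward. Psmb9 is also counted among the ISGF3 targets called there, and this list too was written with results of these arrays known. Cxcl9, a chemokine that draws T cells, was at 18.4, 79.2 and 35.9 units in SS and at 0, 4.24 and 7.23 units in SM. Igtp, an interferon-induced GTPase, was at 4.93, 11.6 and 9.26 units in SS and at 2.57, 0 and 0 units in SM. In MM against MS 17 were again lower with a median of -0.21 and 0 met the criterion. Over the 17 genes above the limit on all arrays the median was -0.11 in both comparisons. In MM against SM 1 gene met the criterion, Igtp, which was at 14.8, 4.27 and 5.78 units in MM. Of all probes tested 1.55% met it there in either direction. In MS against SS 9 were higher and 13 lower with a median of -0.03. Targets of STAT3 had 13 tested genes, with medians between -0.06 and 0.10 in the 4 comparisons. Osmr in MS against SS, dim as given above, and Lcn2, the acute-phase protein lipocalin, lower in MM than in SM (log2 fold change -1.50, SE 0.66, limma, adjusted p = 1), were the 2 called.

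**Figure D4:**
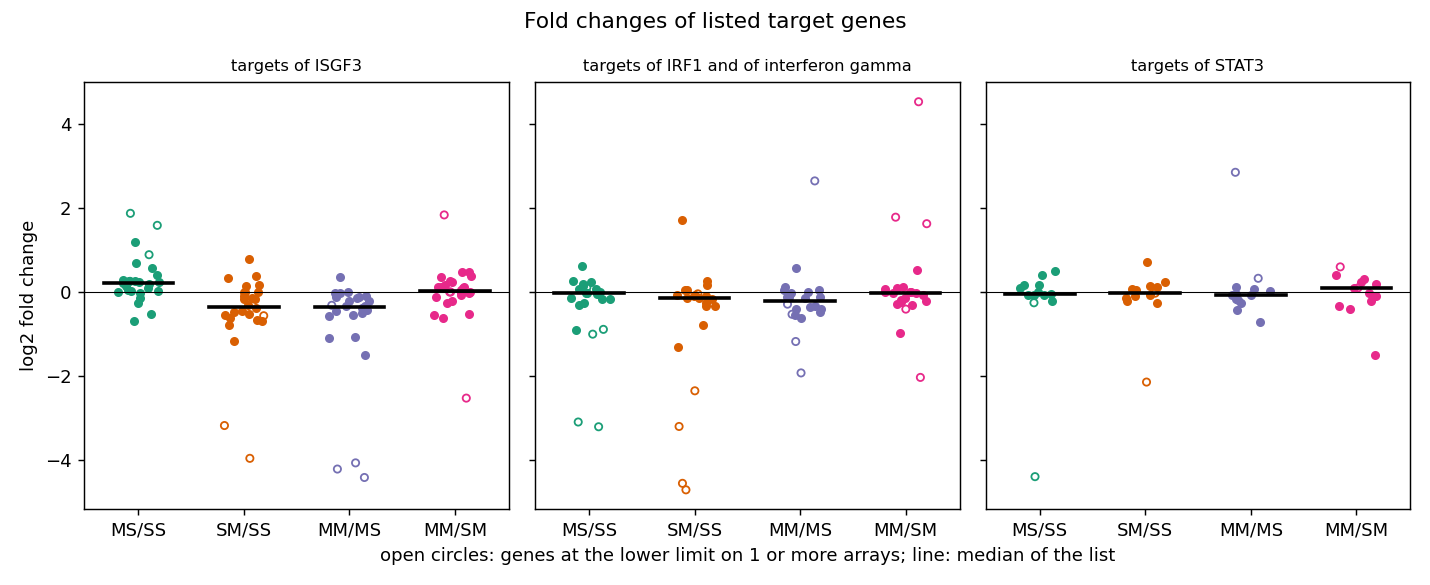
Log2 fold change (vertical axis) of each tested gene of 3 target lists in 4 comparisons (horizontal axis), with a line at the median of each list. The ISGF3 targets sit mostly below 0 in SM/SS and MM/MS (medians -0.35 and -0.35) and mostly above it in MS/SS (median 0.23), and the open circles with the widest folds are genes at the lower limit on 1 or more arrays.

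In tissue samples, fewer cells of a type and less RNA per cell cannot be told apart, so the summed levels of marker genes are set beside these results. Microglia markers (13 of 16 with a probe, 0 called in any comparison, 12 above the limit on all arrays) summed to 5057 to 5517 units in SS, 5371 to 5931 in SM, 4111 to 6271 in MS and 5236 to 5504 in MM. Within MS, replicate 2 held the highest sum and replicate 3 the lowest, as for Irf7 and Irf5. Border macrophage markers (7 of 7 with a probe) summed to 454.2 to 556.2 units in SS, 307.1 to 332.3 in SM, 329.4 to 437.7 in MS and 315.3 to 338.4 in MM, so SS stood above the other groups, and Mrc1 and Pf4 met the criterion downward in SM against SS. Blood cell markers (6 of 8 with a probe), nearly all of it Hbb, summed to 20020.0 to 24400.0 units in SS, 10640.0 to 12840.0 in SM, 14220.0 to 19210.0 in MS and 10580.0 to 19610.0 in MM. Hbb, a haemoglobin chain, and Alas2, the heme enzyme of red cells, met it downward in SM against SS too. Alas2 was also called lower in MS than in SS, and Hba-a2, another haemoglobin chain, lower in MM than in SM, while its mean was 14.1 units in SS and 18.5 units in SM. Meningeal markers (11 of 11 with a probe) summed to 20430.0 to 24600.0 units in SS, 18470.0 to 24310.0 in SM, 21260.0 to 25940.0 in MS and 19970.0 to 21620.0 in MM, with Col1a1 lower in SM than in SS. Gene by gene, 10 of the 11 meningeal markers were lower in SM than in SS (median log2 fold change -0.24) and 10 of 11 lower in MM than in MS (median -0.29), as Irf7 was. A mean log2 level, centred per gene, was taken over the 10 meningeal markers above the limit on all arrays, which leaves out Aldh1a2. It was -0.10 to 0.33 in SS and -0.39 to -0.18 in SM, and 0.16 to 0.30 in MS and -0.44 to 0.07 in MM. These ranges did not overlap in either comparison, whereas the summed levels overlapped in both. Of the markers with a probe outside the dopamine neuron list, S100a9 of blood neutrophils and Cdh5 of endothelial cells were at the limit on all 13 arrays. Ptprc of microglia and other leukocytes was at it on 5, the endothelial marker Ly6c on 3, and Cd163 and Aldh1a2 on 1 each. Markers of endothelial cells, astrocytes and oligodendrocytes gave 0 called genes in every comparison, though Cdh5 could not be tested. The part of these cell types in the interferon gene values was not tested. Among the dopamine neuron markers (8 of 8 with a probe) Th was at 211 to 2670 units and Slc18a2 at 122 to 684 units. Slc6a3, the dopamine transporter, was at the limit on MS replicate 3 and at 130.2 to 2102 units on the other arrays. Ddc of the same list was at the limit on all 13 arrays and Foxa2 on 2. The list summed to 4621 to 6617 units in SS, 6371 to 9708 in SM, 4936 to 11060 in MS and 4524 to 7337 in MM. Without MS replicate 3 the Irf7 log2 fold change of MM against MS was -1.76, and without MS replicate 2 it was -1.30. These were the ends of the range when each array was left out, in a comparison on which the family was picked.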

How the data were processed

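Per the labels and methods, the authors amplified and biotin-labelled total RNA, hybridized it to Illumina RatRef-12 arrays, read signals with BeadStudio and then normalized them globally with GeneSpring. Where the methods call the amplified samples striatal, the tissue of the labels is followed. Their deposited values are ratios: the signal after subtraction of background and scaling of the array, over the probe's own median or over 10 units if that median is smaller, with 0.01 as lower limit (28.21% of values). Signals were recovered from the ratios. For the 8630 probes with a median under 10 units, 29831 of 29831 values above the lower limit fell within 0.02 of a whole multiple of the step of their array. For the other probes, the smallest signal that made the arrays whole multiples of their steps was taken, and that search had no separate check. Levels in units are these signals divided by array medians.

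Ratios were divided by the array median (0.770 to 0.952), floored at 0.012 (the 25th percentile), put on the log2 scale and fitted with limma 3.58.1 (R 4.3.3, trended prior, a mean per group) using the 17140 probes that exceeded the floor on 3 or more arrays, 11320 of them named. Adjusted p-values are by Benjamini and Hochberg over all of these. All 9 genes passed this filter, Irf2 on 4 arrays and Irf8 on 3. The fit was tested on simulated data. A gene with several probes is represented by the probe with the highest mean. Named are the 9 genes, list genes that met the criterion in 1 of the 3 comparisons of the methods (MS/SS, SM/SS, MM/MS), up to 3 a list by smallest p, the 10 genes nearest to Irf7 and 3 for each other gene, and Th, Slc6a3 and Slc18a2. Psmb9, Stat4, Stat5a, Stat5b, Irf4, Aif1, Ifngr1, Jak1 and Lcn2 fall outside that rule or were added after their values were seen. Members and lists were chosen with earlier results of these data known. Promoters are those of RefSeq. Alternatives were normalization, floor, offset, filter, variance, blocks and leaving out each array.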

Additional observations from a re-analysis of the deposited data

Results flagged for a closer look

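In MS, the level of Gbp2 on replicate 2, 158 units, stood away from the other 3 arrays, which lay between 76.9 and 89.1 units. The gap was 0.85 of the range of the group, above Dixon's 95% critical value. MS replicate 3 stood below the others for Top3b, at 16.6 units against 38.6 to 41.5 (0.882 of the range), for Apeh, at 611 against 905 to 957 (0.850), and for Nsg1, at 581 against 719.5 to 748 (0.8294). MS replicate 4 stood below them for Ralb, at 392 units against 466.5 to 479.8 (0.849). The ratio was taken for 59 genes, and chance alone passes it in about 5% of groups.

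For 6 genes named in the text the difference of challenge effects met the criterion, 1.7-fold at an unadjusted limma p below 0.05. Each had an adjusted p of 1, so no difference was detected over all probes. Of the 17140 probes tested 285 (1.66%) met the same criterion. Stat4 falls outside the rule by which genes were named. The log2 difference of challenge effects was 1.28 (SE 0.58) for Socs2, which read 36.5 units in SS, 35.9 in SM, 22.3 in MS and 47.1 in MM. For Oas1a it was -1.82 (SE 0.67), with 15.3, 17.5, 33.3 and 12.0 units in the same order of groups. For Eif2ak2 it was 0.94 (SE 0.34), with 23.9, 10.7, 15.0 and 13.1 units. For Mrc1 it was 1.01 (SE 0.38), with 35.1, 16.1, 25.8 and 23.2 units. For Igtp it was 4.42 (SE 1.80), a value set by 2 SM arrays at the limit, with 8.60, 0.856, 11.7 and 8.28 units. For Stat4 it was 6.136 (SE 2.595), with 7.29, 2.57, 2.79 and 10.04 units. For this gene 2 arrays were at the limit, where the value depends on the floor.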

How the results depend on the processing

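The number of the 9 genes that met the criterion did not change under the alternatives in SM against SS (1), MM against MS (1), MM against SM (0) or the difference of challenge effects (0). In the first 2 of these the gene is Irf7, on which the family was picked, so the counts give no support. In MS against SS it was 0, and 0 to 1 when each array was left out, the 1 being Irf7 without MS replicate 3 (log2 fold change 0.82, limma, adjusted p = 1). Of 1015 recomputed values of single genes 1014 kept their side of the criterion and this 1 crossed it. Adding 16 units to the signal before log2, which compresses low values, gave 17, 38 and 46 probes past the criterion in MS/SS, SM/SS and MM/MS, in place of 193, 277 and 227, with Irf7 at 0.54, -0.79 and -1.30. Restriction to probes above the limit on all arrays gave 81, 149 and 107. With the replicate number as a block 0, 1, 1, 0 and 0 of the 9 genes met the criterion in the order of comparisons above starting with MS against SS, and Irf7 was at 0.63, -0.87 and -1.57 in the first 3. The numbers are not taken as pairing the arrays, since 6 of 15 same-numbered pairs had deviations correlated above 0.1. The second Stat2 probe could not be tested. Irf2, Irf8, Osmr, Stat6, Usp18 and Igtp lie near the limit, where folds depend on the floor.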
